A study of Ovis aries with 30 samples.

Results

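HSP70.1 and FOS are a pair of stress-induced genes that were followed here in epicardial adipose tissue (EAT), the fat that lies on the surface of the heart, of 30 sheep. They are 2 of the 1027 gene names on the array, and they were chosen by their small p-values in CORT lambs compared to Control lambs. Their values in that comparison are therefore given as a description with no test. All array features that carried either name were taken as members, which gave 2 probes for HSP70.1 and 4 for FOS, and all 6 passed the filter on dim probes.

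The tissue came from 8 Control fetuses and 6 CORT fetuses at term, and from 7 Control lambs and 9 CORT lambs aged 2 weeks. CORT refers to cortisol given to the ewe and not to her offspring, from gestational day 115. The ewes of the CORT fetuses received 1 mg/kg per day and the ewes of the CORT lambs 0.5 mg/kg per day. Per the paper, the 0.5 mg/kg per day was infused overnight only and ended after delivery, whereas its earlier 1 mg/kg per day model was continuous. Dose, schedule, time since infusion and age therefore cannot be told apart where the cortisol changes of fetuses and lambs are set side by side. Control ewes were given no cortisol. Each animal had 1 array. Per the paper, 8 CORT ewes delivered 9 lambs with 1 set of twins, so the 9 CORT lambs include that pair. Whether both twins of the Control ewes are among the 7 Control lambs is not stated. The labels do not tell which lambs are twins, so p-values treat littermates as independent animals. Both lamb groups held males and females, per the paper. Arrays lay on 4 slides, with fetuses on slides 1 and 4, lambs on slides 2 and 3, and both treatments on every slide.

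HSP70.1 belongs to the HSP70 family of chaperones, which bind unfolded stretches of protein and help them to fold, and it is the inducible kind whose transcript is made within minutes of heat, hypoxia or handling stress through heat shock factor. FOS is an immediate-early gene. Its protein pairs with a JUN protein to form the transcription factor AP-1, and its transcript appears quickly and decays quickly after growth factors, depolarization or stress. Mammalian genomes hold near-identical copies of the inducible HSP70 gene, so the HSP70.1 probes may record more than 1 copy.

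The probes are shown because the agreement between them rests on how much sequence they share. The HSP70.1 probes overlapped by 58 bases, and the capitals mark the bases that the other probe does not hold.
A_70_P031191: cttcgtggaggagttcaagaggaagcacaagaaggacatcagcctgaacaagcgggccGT
A_70_P031192: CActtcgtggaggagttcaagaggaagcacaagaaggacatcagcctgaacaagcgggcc
Both came from an expressed sequence tag named HSP70.1 on the array, and the files give no genome position. As the probes are all but the same sequence, they amount to a repeat reading of 1 site and not to separate evidence.

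For FOS, 3 probes came from the reference transcript. A_70_P016316 and A_70_P016317 overlapped by 59 bases, with the unshared base in capitals, and A_70_P001561 lay upstream of both and overlapped with neither.
A_70_P001561: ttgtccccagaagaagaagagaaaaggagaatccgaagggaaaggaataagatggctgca
A_70_P016316: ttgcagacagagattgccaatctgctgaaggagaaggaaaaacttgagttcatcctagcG
A_70_P016317: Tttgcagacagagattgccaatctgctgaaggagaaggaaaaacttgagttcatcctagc
The remaining FOS probe, A_70_P026731, came from a cDNA clone record and shared no bases with the other FOS probes.

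Levels are normalized log2 intensities, in which a difference of 1 is a doubling of signal. The brightest probe on average stands for a gene, A_70_P031192 for HSP70.1 and A_70_P026731 for FOS. Each was well above background, by the scanner software's own call, on all 30 arrays. Levels of different probes were not compared.

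HSP70.1 was lower in lambs than in fetuses among untreated animals. In the 8 Control fetuses its log2 level ran from 10.90 over a median of 11.21 to 11.60, with a mean of 11.24 ± 0.25 (SD, n = 8). In the 7 Control lambs it ran from 9.76 over 10.29 to 10.86, with a mean of 10.25 ± 0.42 (SD, n = 7). Every Control lamb therefore lay below every Control fetus. In the 9 CORT lambs the level of HSP70.1 ran from 10.11 over 10.88 to 11.28, with a mean of 10.82 ± 0.39 (SD, n = 9). In the 6 CORT fetuses it ran from 10.09 over 11.26 to 12.91, with a mean of 11.37 ± 0.92 (SD, n = 6). The CORT fetuses held both the highest HSP70.1 level of all fetuses, in CORT fetus 5, and the lowest, in CORT fetus 1 at 10.09. In order of their means the groups ran CORT fetuses, Control fetuses, CORT lambs and Control lambs, and the ranges of each group and its neighbour in that order overlapped.

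FOS had a similar level in 3 of the groups and its highest group mean in CORT lambs. In Control fetuses the log2 level of FOS ran from 8.39 over a median of 8.57 to 9.41, with a mean of 8.66 ± 0.33 (SD, n = 8). In CORT fetuses it ran from 8.06 over 8.42 to 9.81, with a mean of 8.66 ± 0.62 (SD, n = 6). In Control lambs it ran from 8.33 over 8.52 to 9.20, with a mean of 8.58 ± 0.29 (SD, n = 7). In each of these groups a single animal stood above the rest, which were Control fetus 2, CORT fetus 5 and Control lamb 4. In CORT lambs FOS ran from 8.52 over 8.99 to 10.10, with a mean of 9.10 ± 0.50 (SD, n = 9). The highest were CORT lamb 8 at 10.10 and CORT lamb 2 at 9.64. All 4 groups overlapped with each other.

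**Figure D1:**
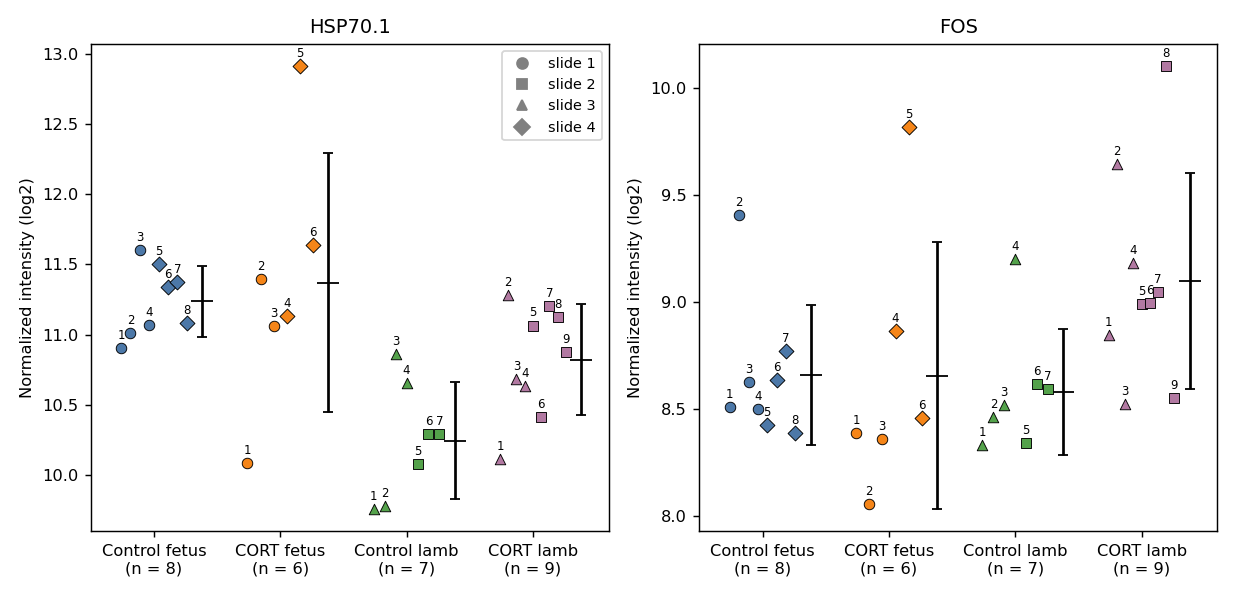
Normalized log2 intensity of HSP70.1 (left) and FOS (right) in each animal of the 4 groups, with the animal's number above its point, the slide as the symbol, and the group mean ± SD as the bar to the right. The 7 Control lambs lie below the 8 Control fetuses for HSP70.1 and not for FOS, and CORT fetus 5 is the highest CORT fetus in both panels.

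Control lambs were compared to Control fetuses to ask how the genes differ with maturation in the absence of added cortisol. This comparison shares the Control lambs with the comparison by which the genes were selected. Genes chosen for a higher level in CORT than in Control lambs tend to have low values in the Control lambs at hand, which pushes this difference downwards, so the values of both genes are a description with no test. The HSP70.1 level differed by -0.99 on the log2 scale (SE 0.16), a 1.99-fold lower signal in Control lambs. The CORT lambs, whose values the choice pushes upwards, differed from the Control fetuses by -0.41 (SE 0.16), with 5 of 9 below the lowest Control fetus. The other HSP70.1 probe, A_70_P031191, was lower by a change of -1.03, and its groups did not overlap either.

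The background to this difference is wide. Of the 13077 probes tested, limma called 5346 (40.9%) at an adjusted p under 0.05 in this comparison, 2743 of them (21%) lower and 2603 (19.9%) higher in Control lambs. Every Control lamb lay below every Control fetus for 1092 of 13058 probes (8.36%). HSP70.1 was thus one of many features that separated the ages, and age was nested in slide, so age and slide cannot be told apart.

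The maturational difference in FOS was -0.08 (SE 0.15), with 0 of 7 Control lambs above the highest Control fetus and 2 below the lowest. The sign of this small value turned when Control fetus 2 was left out (0.03), when array weights were used (0.03), when scanner-corrected signal was used (0.01) and with the mean of all FOS probes (0.02).

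Markers of the cells in the tissue also differed between Control lambs and Control fetuses, and their part in the HSP70.1 difference was not tested. In bulk tissue fewer cells of a type and less RNA per cell cannot be told apart. The summed log2 level of 2 of 7 brown adipocyte markers, UCP1 and PPARGC1A, ran from 13.79 to 15.58 in Control fetuses and from 9.87 to 11.98 in Control lambs. The 3 of 7 fibroblast markers measured, COL1A2, COL3A1 and DCN, ran from 14.61 to 15.43 in Control fetuses and from 16.02 to 16.51 in Control lambs. The 4 of 9 myeloid markers ran from 10.15 to 10.52 in Control fetuses and from 10.72 to 11.23 in Control lambs, with ITGAM well above background on 3 arrays of the former and 1 of the latter. These 3 lists did not overlap between the ages. Each sum was taken on the linear scale, so its brightest marker, UCP1, DCN or FCER1G, weighed most. Of the myeloid markers FCER1G (0.85) and CD14 (0.28) passed the limma test, and LYZ (0.25) and ITGAM (0.07) did not. Among single probes, 8.36% had every Control lamb below every Control fetus, and the share the other way was not counted. The 6 of 12 adipocyte markers were well above background on every array, and their summed level overlapped between Control fetuses (15.20 to 15.80) and Control lambs (15.12 to 16.56). Of these 6, the lipid enzymes LPL (1.81, limma adjusted p = 2.44e-06) and SCD (1.27, limma adjusted p = 0.0124) and the hormone LEP (0.55, limma adjusted p = 0.00721) rose, while FABP4 (0.44), PLIN1 (0.27) and PPARG (-0.42) did not pass. The summed level of 4 of 9 endothelial markers overlapped too, although the VEGF receptors FLT1 and KDR fell by 0.52 and 0.46 (limma adjusted p = 0.00243 and 0.0014), with PECAM1 (-0.12) and TIE1 (-0.13) not passing. The sums also overlapped for 2 of 17 striated muscle, 2 of 8 erythroid and 3 of 8 T cell markers and the single mesothelial marker of 7, WT1.

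CORT fetuses were compared to Control fetuses to ask whether maternal cortisol moved the genes before birth, in animals that played no part in the choice of the genes. Neither gene passed the test. The change in HSP70.1 was 0.14 (SE 0.31, 95% interval -0.52 to 0.79, limma adjusted p = 1; exact two-sided permutation p = 0.682, 3003 splits). The change in FOS was -0.002 (SE 0.23, 95% interval -0.50 to 0.50, limma adjusted p = 1; exact two-sided permutation p = 0.994). The interval of HSP70.1 takes in the difference of 0.58 described below for lambs. That of FOS ends just short of the 0.52 described there, which has its own SE of 0.20. The choice of the genes favours high lamb values, so these intervals do not tell whether fetuses and lambs differ. Limma called 0 of 13077 probes (0%) at an adjusted p under 0.05 in this comparison, and 307 had an unadjusted p under 0.05.

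The spread of the CORT fetuses was the feature of this comparison. On slide 1 HSP70.1 was lower in the 3 CORT than in the 4 Control fetuses by a difference of -0.30, and on slide 4 it was higher in 3 CORT than in 4 Control fetuses by 0.57. FOS showed the same split, with -0.49 on slide 1 and 0.49 on slide 4. On slide 1 the CORT and Control fetuses did not overlap on this FOS probe. They overlapped there on the other 3 FOS probes, with differences of -0.105, -0.176 and -0.147. The share of all probes without overlap on slide 1 was not counted, so nothing is read from the lack of overlap there. CORT fetus 5, the high animal, was on slide 4, and without it the slide 4 differences were 0.06 for HSP70.1 and 0.105 for FOS. Without CORT fetus 1 the slide 1 difference in HSP70.1 was 0.08, and without Control fetus 2 that in FOS was -0.28. Over both slides, the limma change in HSP70.1 without CORT fetus 5 was -0.17 and that in FOS -0.23. Without CORT fetus 1 the change in HSP70.1 was 0.39 over both slides. The slide 4 differences also moved with the normalization. On arrays scaled to their 75th percentile, HSP70.1 went from 11.13 to 10.58 in CORT fetus 4 and from 11.64 to 11.21 in CORT fetus 6. FOS went from 8.86 to 9.14 and from 8.46 to 8.85 in these 2 animals of slide 4.

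In CORT lambs compared to Control lambs, the comparison by which the genes were chosen, both genes had a higher mean level. HSP70.1 was higher by 0.58 (SE 0.19), a 1.49-fold signal, with 8 of 9 CORT lambs above the mean of the Control lambs and 5 above the highest of them. The other HSP70.1 probe, A_70_P031191, gave a smaller difference of 0.459 (SE 0.164), a 1.37-fold signal. With the mean of both HSP70.1 probes the difference was 0.518. FOS was higher by 0.52 (SE 0.20), a 1.43-fold signal, with 7 of 9 above that mean and 2 above the highest Control lamb. Limma called 0 of 13077 probes (0%) here at an adjusted p under 0.05, and 467 had an unadjusted p under 0.05. Nothing is read from these counts for HSP70.1 and FOS, as this comparison picked them out.

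Within slides the lamb values had the same direction. The slides hold the same lambs by which the genes were chosen, which favours this direction, so it is no separate evidence. HSP70.1 was higher in CORT lambs by 0.72 on slide 2, where the 5 CORT and 3 Control lambs did not overlap. The share of all probes without overlap on slide 2 was not counted, so nothing is read from the lack of overlap there. On slide 3 HSP70.1 was higher by 0.41, and the 4 CORT and 4 Control lambs overlapped. On A_70_P031191 the differences were 0.682 on slide 2 and 0.244 on slide 3. FOS was higher by 0.62 on slide 2 and by 0.42 on slide 3, with overlap on both. These values leaned on single animals. Without CORT lamb 8 the slide 2 difference in FOS was 0.38, and without CORT lamb 2 the slide 3 differences were 0.22 for FOS and 0.21 for HSP70.1. The authors' deposited log2 values of the lambs gave a difference of 0.601 for HSP70.1 and 0.605 for FOS. The mean of all 4 FOS probes, 3 of them dim, gave a smaller difference of 0.28.

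The cortisol change in lambs less that in fetuses was 0.44 (SE 0.36) for HSP70.1 and 0.52 (SE 0.32) for FOS. It carries no test because the lamb comparison chose the genes. It also moved with single fetuses, from 0.18 without CORT fetus 1 to 0.75 without CORT fetus 5 for HSP70.1, and to 0.75 without CORT fetus 5 for FOS.

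Probes of a gene followed each other across animals. The overlapping HSP70.1 probes had a Pearson r of 0.976 over the 30 arrays, and 0.966 once each group's mean was subtracted. They parted in Control lamb 1, the lowest Control lamb on A_70_P031192 (9.756), which had rank 3 on A_70_P031191 (10.016). A probe with no gene name, A_70_P060956, whose annotation shares 2 sequence records with the HSP70.1 probes and which overlaps neither, correlated with A_70_P031192 at r = 0.968. In this unnamed probe every Control lamb also lay below every Control fetus, with a difference of -1.01, and the mean of CORT lambs was 0.43 above that of Control lambs. The unnamed probe differed in CORT lamb 2, on which the slide 3 difference in HSP70.1 leaned. This lamb was the highest CORT lamb on A_70_P031192 (11.283) and A_70_P031191 (10.855) but had rank 7 on the unnamed probe (10.454). The unnamed probe was not counted as HSP70.1.

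The 4 FOS probes agreed less closely. Their pairwise r over the 30 arrays ran from 0.709, between A_70_P001561 and A_70_P016316, to 0.849, between the overlapping A_70_P016316 and A_70_P016317. A_70_P026731 had r of 0.713, 0.823 and 0.832 with the other FOS probes. A_70_P001561 was well above background on only 20 of 30 arrays, including 3 of 6 CORT fetuses and 4 of 7 Control lambs, and A_70_P016317 on 29. In lambs the differences of CORT over Control were 0.15 for A_70_P001561, 0.24 for A_70_P016316 and 0.21 for A_70_P016317, in the same direction as the 0.52 of A_70_P026731 and smaller. Without CORT lamb 8 they were 0.08, 0.14 and 0.11, and that of A_70_P026731 was 0.39. In Control lambs over Control fetuses the differences were 0.10, -0.003 and 0.07 in the same order of probes, and in CORT over Control fetuses -0.01, -0.01 and 0.03. The dim FOS probes also moved with the processing. In CORT over Control lambs the alternative settings gave 0.102 to 0.372 for A_70_P001561, 0.158 to 0.506 for A_70_P016316 and 0.138 to 0.485 for A_70_P016317. On arrays scaled to their 75th percentile, CORT over Control fetuses became 0.81, 0.65 and 0.73, in a setting where the median of all probes was 0.28.

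The same animal was the highest of its group on all 4 FOS probes, in every group. These were Control fetus 2, CORT fetus 5, Control lamb 4 and CORT lamb 8. CORT lamb 8 reached 7.42 on A_70_P001561, 7.90 on A_70_P016316 and 7.86 on A_70_P016317, whereas the median CORT lamb stood at 6.81, 7.08 and 7.02. The high FOS level of CORT lamb 8 was thus read by probes of separate sequence. For the other animals a first rank need not mean a wide lead. Control lamb 4 stood at 6.826 on A_70_P001561, 6.945 on A_70_P016316 and 7.056 on A_70_P016317. The next Control lamb stood at 6.784, 6.911 and 7.009.

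**Figure D2:**
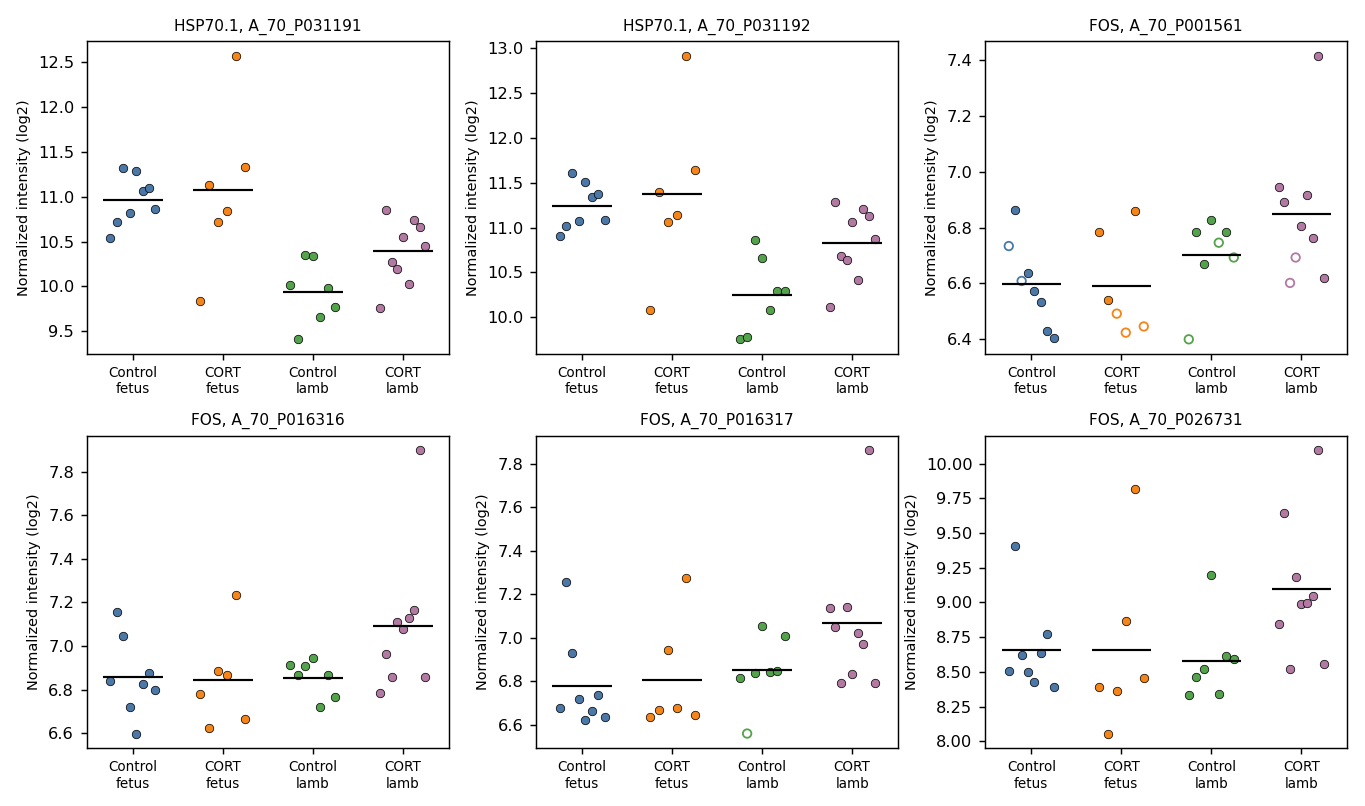
Normalized log2 intensity of each of the 2 HSP70.1 and 4 FOS probes in every animal, with a line at the group mean and hollow points where the scanner software did not call the spot well above background. CORT lamb 8 is the highest animal of all 30 on each FOS probe, and CORT fetus 5 the highest on both HSP70.1 probes, where the vertical scales differ between panels.

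These high animals were at the edge of their groups in some other measures, whose part in the FOS and HSP70.1 levels was not tested. With many marker lists and small groups, any animal tends to be the highest or lowest on some list. These extremes therefore do not set the high animals apart. Control fetus 2, at 9.41 for FOS, had the highest summed striated muscle markers (MB and TNNC2) of the Control fetuses, 17.45 against 13.00 to 15.21 in the others, and the lowest summed T cell, erythroid, fibroblast and myeloid markers. CORT fetus 5 had the lowest summed adipocyte markers of the CORT fetuses, 15.03 against 15.04 to 16.27, and the highest fibroblast markers, 15.65 against 15.08 to 15.42. CORT fetus 1, the low animal for HSP70.1, had the highest adipocyte markers of the CORT fetuses, 16.266 against 15.026 to 15.913. It also had the lowest T cell markers, 8.393 against 8.712 to 9.417, and erythroid markers, 11.267 against 13.634 to 16.449. CORT lamb 8 had the lowest summed adipocyte markers of the CORT lambs, 15.68 against 15.84 to 16.31, and the highest endothelial markers, 13.33 against 12.48 to 13.03. Control lamb 4 had the lowest T cell markers of the Control lambs, 8.52 against 8.69 to 9.40, and lay inside the range of its group for the other 8 marker lists. CORT fetus 5 and CORT lamb 8 also had the highest share of spots well above background of their groups, 78.9% against 75.9% to 78.3% in the other CORT fetuses and 78.1% against 70.4% to 77.4% in the other CORT lambs. Control fetus 2 (75.6%) and Control lamb 4 (76.4%) lay inside the range of their groups.

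HSP70.1 and FOS were set against each other within each group. The fetal groups played no part in the choice of the genes, whereas the spread of each gene within the lamb groups entered the p-values by which they were chosen, so the lamb p-values below are not independent of that choice. The adjustment over the 4 groups uses these lamb p-values, so the adjusted fetal values rest on them in part. Pearson r was -0.19 in Control fetuses (n = 8, exact permutation p = 0.733), 0.73 in CORT fetuses (n = 6, exact permutation p = 0.129), 0.59 in Control lambs (n = 7, exact permutation p = 0.162) and 0.49 in CORT lambs (n = 9, exact permutation p = 0.186). Spearman rho was -0.07, 0.49, 0.75 and 0.50 in the same order, with exact two-sided permutation p = 0.882, 0.356, 0.0663 and 0.178. None of the 4 groups passed after Benjamini-Hochberg adjustment over the groups, with adjusted exact p of 0.733, 0.248, 0.248 and 0.248 for r and 0.882, 0.474, 0.265 and 0.355 for rho.

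The relation in CORT fetuses rested on single animals. Without CORT fetuses 1 and 5, the 2 farthest from the median of HSP70.1, r was -0.31. With the 2 farthest animals left out, r was -0.39 in Control fetuses, 0.85 in Control lambs and 0.57 in CORT lambs. The values over 4 CORT fetuses and 5 Control lambs show only how far r moved. No slide held as many as 6 animals of a group, so no r was taken on a single slide. With the mean of each slide within the group subtracted from both genes, r was -0.07 in Control fetuses, 0.54 in CORT fetuses, 0.59 in Control lambs and 0.49 in CORT lambs, with exact two-sided permutation p (pairs permuted within slides) of 0.903, 0.5, 0.354 and 0.203.

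**Figure D3:**
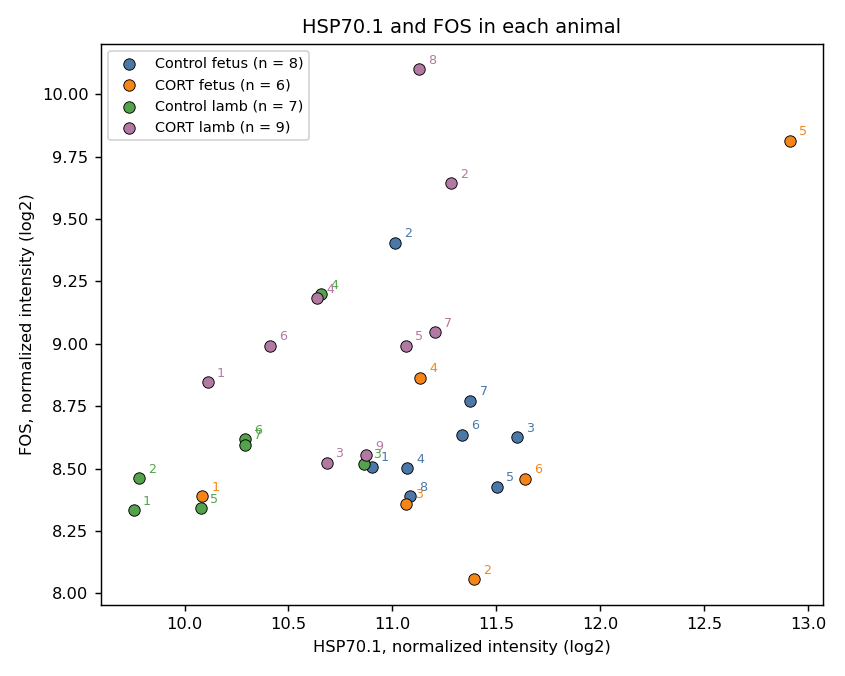
Log2 level of FOS (vertical axis) against that of HSP70.1 (horizontal axis) in each of the 30 animals, coloured by group and numbered. CORT fetus 5 is high for both genes and Control fetus 2 for FOS alone. CORT lamb 8 is the highest of the 9 CORT lambs for FOS and has rank 3 for HSP70.1. Within-group r ran from -0.19 to 0.73.

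The named genes whose levels were most like those of HSP70.1, over the 30 arrays after the mean of each group was subtracted, were SPRY4 (r = 0.668), SLC2A3 (0.643), FLT1 (0.637), VEGFR-1 (0.615) and WNT5A (0.595). SPRY4 is a feedback inhibitor of receptor tyrosine kinase signalling, SLC2A3 a glucose transporter, and VEGFR-1 another name for the VEGF receptor FLT1. Over 13003 probes, leaving out those of both genes and the unnamed A_70_P060956 (0.955), the median r with HSP70.1 was -0.015 and the highest 0.742. Without CORT fetus 5 the r of these 5 names lay between 0.328 (FLT1) and 0.477 (SPRY4).

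For FOS the most similar named genes were LDHA (r = 0.706), which codes for lactate dehydrogenase, SMAD7 (0.535), an inhibitor of TGF-beta signalling, SPRY4 (0.535), HSP70.1 (0.530) and the water channel AQP1 (0.527). Without CORT fetus 5 LDHA stood at 0.590, SMAD7 at 0.379, AQP1 at 0.319, SPRY4 at 0.316 and HSP70.1 at 0.274. The r of LDHA with FOS moved less without CORT fetus 5 than that of HSP70.1 with FOS. All of these correlations are descriptions across arrays that share their normalization.

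The other heat shock proteins and chaperones were used to place HSP70.1 among its functional relatives. Of 74 such genes listed, 6 were named on the array and tested. In Control lambs compared to Control fetuses 2 were higher, 1 was lower and 3 did not pass, which is near the 40.9% called over all probes, with a median change of 0.07 beside -0.007 over all probes. TCP1, a subunit of the cytosolic chaperonin, fell by 0.54 (limma adjusted p = 0.000323). CRYAA, a small heat shock protein best known from the lens, rose by 0.45 (limma adjusted p = 2.72e-05). HSPA5, the HSP70 protein of the endoplasmic reticulum, rose by 0.34 (limma adjusted p = 0.0104), where HSP70.1 was lower. The cytosolic chaperone HSP90AA1 (-0.06), the small heat shock protein CRYAB (-0.02) and the ubiquitin gene UBB (0.15) did not pass. In CORT compared to Control fetuses 0 of the 6 passed, with changes from -0.09 to 0.30.

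In CORT lambs compared to Control lambs 0 of the 6 passed. Their changes ran from -0.09 for TCP1 to 0.15 for CRYAA, with 5 of 6 above 0, all smaller than the 0.58 of HSP70.1, which the choice of HSP70.1 in this comparison favours.

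FOS was set beside the other immediate-early and AP-1 genes. Of 57 listed, 10 were tested. In Control lambs compared to Control fetuses 4 were higher, 3 were lower and 3 did not pass, beside 19.9% higher and 21% lower over all probes, with a median change of 0.07. JUND, a partner of FOS in AP-1, rose by 0.90 (limma adjusted p = 4.41e-05). ZFP36, which binds AU-rich transcripts and speeds their decay, was higher by 0.70 (limma adjusted p = 9.69e-05) on its brightest probe, but its other probe changed by -0.44. The small GTPase RHOB rose by 0.37 and the zinc finger factor EGR1 by 0.33, the second EGR1 probe giving 0.08. ATF4, the translation-controlled factor of the integrated stress response, fell by 0.86 (limma adjusted p = 7.14e-05). NFKBIA, the inhibitor of NF-kappa-B, fell by 0.50, and the matricellular protein CCN1 fell by 0.43. JUNB (0.31), MYC (-0.44) and CREM (-0.17) did not pass.

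In CORT fetuses compared to Control fetuses 0 of these 10 passed, with changes from -0.13 for CREM to 0.23 for NFKBIA. In CORT lambs compared to Control lambs 0 of 10 passed as well, with changes from -0.09 for JUNB to 0.34 for MYC. JUND changed by 0.31 there and EGR1 by -0.05, beside the 0.52 of FOS.

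**Figure D4:**
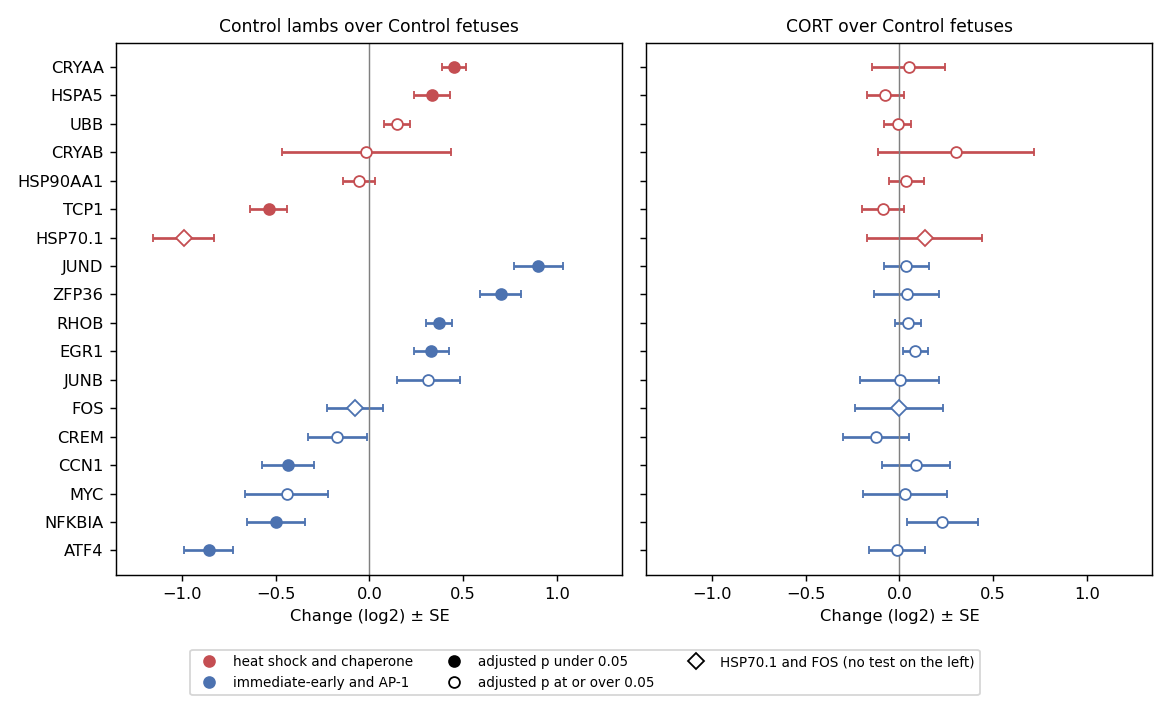
Change on the log2 scale ± SE of HSP70.1, FOS and the tested genes of the heat shock and immediate-early lists, in Control lambs over Control fetuses (left) and CORT over Control fetuses (right), with filled points at a limma adjusted p under 0.05 and HSP70.1 and FOS as diamonds, left unfilled on the left where they carry no test. HSP70.1 has the lowest change on the left at -0.99 and JUND the highest at 0.90, and no point on the right is filled.

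Further stress lists gave no gene past the test in CORT fetuses compared to Control fetuses. In Control lambs compared to Control fetuses, 5 of 7 glucocorticoid-responsive genes were higher and 1 was lower. Over all probes 19.9% were higher and 21% lower there, which is the background to this and the next counts. HSD11B1, the enzyme that regenerates cortisol, rose by 0.95, HSD11B2, which inactivates cortisol, rose by 0.90, and the glucocorticoid receptor NR3C1 rose by 0.90. Of 8 unfolded protein and oxidative stress genes 4 were higher, led by TXN (thioredoxin) at 0.59, and 2 were lower, ATF4 and DDIT3 at -0.46. Of 6 hypoxia genes, HIF1A (0.34) and EPAS1 (0.25) rose, and the vascular growth factor VEGFA (-0.83) and the glycolytic enzyme ALDOA (-0.96) fell.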

How the data were processed

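RNA of EAT from 30 sheep was measured on 1-colour Agilent sheep arrays, labelled with Cy3 per the labels. Per the file headers, the deposited scanner files hold linear intensity values, the mean foreground and median local background per spot, as written by Feature Extraction 10.1.1.1. The authors also deposited normalized log2 values, background corrected and quantile normalized with limma. Their 16 lamb columns served as an alternative, and 14 fetal columns were not used.

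Median foreground intensity was 132 to 240 per array over a background of 34 to 46, 70.4% to 83.5% of spots were well above background, and the number of arrays limits the precision. Arrays of a group correlated at 0.957 to 0.993 and none were identical. Background was corrected in limma 3.58.1 (R 4.3.3) by normexp with an offset of 50, 3 to 17 outlier-marked spots per array were removed, and 30 arrays were quantile normalized. Of 15008 probes, 13077 were at least 10% brighter than the 95th percentile of 77 negative control spots on at least 6 arrays and were tested with lmFit and eBayes, two-sided, with Benjamini-Hochberg adjustment over all 13077. Gene names came from the array's own annotation or from 292 matches to RefSeq gene records (assembly ARS-UI_Ramb_v3.0, names only), giving 1656 named probes. Groups were taken from sample titles. The scripts were tested on simulated data.

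The members and gene lists were chosen with earlier results of these data known. Genes were named by rule, which took in every tested heat shock and immediate-early gene, from other lists at most 4 genes each way that passed, and the 5 names most like each member. Alternatives covered scanner-corrected signal, cyclic loess, scaling to the 75th percentile, an offset of 16, separate normalization of the ages, no filter, outlier spots kept, slide, array weights, 1 fit of all arrays, each animal left out, replicate numbers as a block and the mean of a gene's probes. The likeness of genes without CORT fetus 5, the correlation with slide means subtracted and the within-slide values without single animals were added after seeing the data, as were the values of CORT lambs against Control fetuses. The test of both genes in Control lambs over Control fetuses was planned and is not given, because the Control lambs took part in their choice.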

Additional observations from a re-analysis of the deposited data

Results flagged for a closer look

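Among 24 combinations of a member probe and a group, 6 held an animal far from the rest by Dixon's criterion, where chance gives about 1 in 20, and the combinations are not independent because the probes read the same RNA. All 6 were FOS probes. CORT lamb 8 stood above the other CORT lambs at 7.42 on A_70_P001561, at 7.90 on A_70_P016316 and at 7.86 on A_70_P016317. Control fetus 2 (9.41) and Control lamb 4 (9.20) stood above their groups on A_70_P026731. Control lamb 1 stood below the other Control lambs at 6.40 on A_70_P001561, where its spot was not well above background.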

How the results depend on the processing

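HSP70.1 was lower in Control lambs than in Control fetuses under all 26 alternatives, with differences from -1.09 to -0.91, which carry no test. The replicate numbers were also tried as a block. They pair no samples by origin, and of the shared numbers 3 of 6, 1 of 7 and 5 of 7 correlated above 0.1 in their deviations (in the fetal cortisol, the maturation and the lamb cortisol comparison). With the replicate block the changes in HSP70.1 were 0.13, -1.01 and 0.53 in these comparisons and those in FOS -0.03, -0.12 and 0.45, the differences between lambs and fetuses 0.33 and 0.48, and neither gene passed in CORT over Control fetuses. The hypoxia genes that passed in maturation went from 4 to 2 with this block, and the probes called in CORT over Control fetuses from 0 to 1.

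Small changes turned sign. HSP70.1 in CORT over Control fetuses was -0.059 with scaling to the 75th percentile, and FOS there was 0.11 with that scaling, 0.003 with cyclic loess and 0.001 with the mean of all FOS probes. FOS in maturation was 0.014 with scanner-corrected signal, 0.03 with array weights and 0.024 with the mean of all FOS probes. Leaving out 1 animal at a time gave -0.17 to 0.39 for HSP70.1 and -0.23 to 0.12 for FOS in CORT over Control fetuses, and -0.18 to 0.03 for FOS in maturation. The cause was not tested. The correlation in CORT fetuses went from 0.73 to -0.31 without the 2 farthest animals. Scaling to the 75th percentile moved the median of all probes to 0.28 in CORT over Control fetuses and to 0.15 in maturation, where 31.1% of calls were then lower in lambs in place of 51.3%.

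Of single list genes, CCN1, NFKBIA, HSPA5, PDIA4, CEBPB, EPAS1 and HIF1A lost their call in maturation under at least 1 alternative, and UBB gained one with scaling to the 75th percentile. Groups of 6 to 9 animals and a dim signal for 3 of the 4 FOS probes limit the precision of these values.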
